A study of Mus musculus with 78 samples.

Results

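Genes of 10 mouse KRAB zinc finger proteins with published targets were followed through the loss of their shared cofactor TRIM28. They were taken by symbol from the gene tables, which list 54446 genes for RNA-seq and 54435 for nascent RNA, by a rule on names that uses no measured value, although results of these data were known when it was written. By the published role of the protein, 7 belong to retroviral repression (Zfp809, Zfp932, Gm15446, Zfp708, Zfp961, Zfp819, Zfp989), 1 to a gene promoter (Zfp568) and 2 to the control of imprints (Zfp57, Zfp445). All 10 had mRNA above the filter on low values, which asked for 1 TPM (transcripts scaled to transcript length and library size) in 3 libraries, and 8 passed the nascent RNA filter of 0.5 FPKM (fragments scaled to library size and, here, to the length of the whole gene) in 3 libraries. Zfp708 and Zfp989 were under the second filter.

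The study asked how mouse embryonic stem cells (mESCs) respond when TRIM28 is degraded within hours. V6.5 mESCs carried a degradation-sensitive FKBP tag at the N terminus of TRIM28, in a line grown from a picked colony, and received 500 nM dTAG-13, the ligand that sends the tagged protein to the proteasome, or DMSO. New transcripts were labelled with 500 µM 4-thiouridine for 15 min (TT-SLAM-seq; DMSO and 2, 6 and 24 h of dTAG-13). Polyadenylated RNA was sequenced in DMSO and after 2, 6, 24 and 96 h, and H3K9me3, H3K27ac, RNA polymerase II (RNAPII) and the Mediator subunit MED23 were mapped by ChIP-seq in DMSO and at 24 h. These cells had been depleted of feeder fibroblasts. A V6.5 line with inducible hairpins against endogenous retroviruses (ERVs) was grown on feeder fibroblasts. The paper reports TRIM28 degradation in its hairpin experiments, so this line is taken to carry the tag as well. Below, "tagged line" means the line without hairpins. The hairpin line was given DMSO, dTAG-13 for 24 h, or dTAG-13 with doxycycline (Dox, 2 µg/ml). Its total RNA was sequenced with another kit. Its sample titles place Dox in the third group, whereas its protocol text mentions a Dox pre-treatment for all 3 groups, and the groups were taken from the titles. Untreated parental V6.5 cells, untagged and on feeder fibroblasts, and neural progenitor cells (NPCs) of the V6.5 strain in DMSO completed the RNA-seq set. The paper's methods describe feeder removal before RNA-seq and before dTAG-13 treatment in general. Whether feeders remained in the hairpin and parental samples is therefore not clear. Each RNA and histone mark group held 3 libraries, and each RNAPII and MED23 group held 2.

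KRAB zinc finger proteins read DNA with long arrays of zinc fingers and bind TRIM28 through their KRAB domain. TRIM28 then recruits the histone methyltransferase SETDB1, which places H3K9me3, together with HP1 proteins and the NuRD complex. In embryonic stem cells the family is known for silencing endogenous retroviruses and for keeping DNA methylation at imprinted genes, and many of its genes lie in clusters that carry H3K9me3 over their own bodies.

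The targets of Zfp57 are known in sequence. Its protein binds the methylated hexamer TGCCGC, and the promoters of the imprinted genes Mest and Snrpn that carried the hexamer and H3K9me3 peaks are printed here, read in the direction of transcription, with the hexamer on either strand in capitals (TGCCGC or its complement GCGGCA). Each runs from 250 bases before to 50 bases after the RefSeq start (GRCm38.p6).
Mest promoter 2, chr6:30737800-30738099, plus strand: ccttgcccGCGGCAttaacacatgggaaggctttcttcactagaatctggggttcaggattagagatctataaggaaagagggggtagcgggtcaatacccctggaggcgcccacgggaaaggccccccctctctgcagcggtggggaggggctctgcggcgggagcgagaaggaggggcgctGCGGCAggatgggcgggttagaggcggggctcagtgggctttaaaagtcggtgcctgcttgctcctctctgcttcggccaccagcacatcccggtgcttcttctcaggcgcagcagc
Snrpn promoter 4, chr7:60005150-60005449, minus strand: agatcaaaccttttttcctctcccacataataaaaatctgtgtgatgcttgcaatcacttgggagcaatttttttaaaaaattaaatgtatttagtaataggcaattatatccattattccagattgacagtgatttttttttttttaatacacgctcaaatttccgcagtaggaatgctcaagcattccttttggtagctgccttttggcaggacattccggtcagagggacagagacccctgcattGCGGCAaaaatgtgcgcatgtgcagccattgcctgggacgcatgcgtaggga
The hexamer was present in 11.6% of all 32851 RefSeq promoters of this length. The Mest promoter held 2 copies and the Snrpn promoter held 1. H3K9me3 peaks lay over the Mest promoter in all 3 DMSO libraries, with fold enrichments over the peak caller's background of 6.32, 5.31 and 4.92, and no dTAG-13 library had a peak there. Over the Snrpn promoter the DMSO libraries gave 3.09, 2.87 and 2.76, and 1 of 3 dTAG-13 libraries still had a peak, at 3.15. A match of these letters describes the window only.

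Promoters of 3 KRAB zinc finger genes are printed with every CG in capitals, because their chromatin moved in different directions. Gm15446 had an H3K9me3 peak over this window, which lies inside the annotated gene span, in all 3 DMSO libraries. Fold enrichments were 6.63, 4.15 and 4.58, and there was no peak with dTAG-13. Zfp57 and Zfp819 carried RNAPII and MED23. Gm15446 also carried RNAPII, at 4.1 and 4.22 in DMSO, within 1 kb of its gene start, which lies outside its window.
Gm15446 promoter, chr5:109933313-109933612, plus strand: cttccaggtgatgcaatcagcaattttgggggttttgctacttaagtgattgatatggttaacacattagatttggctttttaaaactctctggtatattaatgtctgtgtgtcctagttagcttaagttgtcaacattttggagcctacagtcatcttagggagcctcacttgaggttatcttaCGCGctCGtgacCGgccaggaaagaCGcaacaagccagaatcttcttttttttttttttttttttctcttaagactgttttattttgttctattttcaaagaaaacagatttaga
Zfp57 promoter 3, chr17:37002275-37002574, plus strand: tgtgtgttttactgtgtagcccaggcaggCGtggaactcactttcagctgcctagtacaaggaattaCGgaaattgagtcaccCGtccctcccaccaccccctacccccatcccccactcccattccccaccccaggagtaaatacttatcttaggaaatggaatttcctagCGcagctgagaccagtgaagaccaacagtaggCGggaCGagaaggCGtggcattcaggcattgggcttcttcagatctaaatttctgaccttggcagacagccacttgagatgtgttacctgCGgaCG
Zfp819 promoter, chr7:43606919-43607218, plus strand: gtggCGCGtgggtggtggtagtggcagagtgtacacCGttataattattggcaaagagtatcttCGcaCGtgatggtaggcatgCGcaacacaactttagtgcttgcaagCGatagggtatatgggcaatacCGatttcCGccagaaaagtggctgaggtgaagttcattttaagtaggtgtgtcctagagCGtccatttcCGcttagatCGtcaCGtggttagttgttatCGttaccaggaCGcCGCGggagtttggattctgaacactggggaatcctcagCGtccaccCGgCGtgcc
These windows held 5, 9 and 20 CG dinucleotides, beside a median of 7 over all promoters. RefSeq promoters were matched for 8 of the 10 genes, and none was matched for Zfp568 and Zfp989. The hexamer TGCCGC was found in the promoter of 1 of the 8, Zfp961.

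The tables give TPM per transcript length, so levels can be set side by side between genes. In DMSO, Zfp57 was at 413, 410 and 508 TPM, and no other of 411 genes named Zfp was higher (the next reached 291 TPM). Zfp568 followed at 101 ± 1.54 TPM (SD, n = 3), then Zfp809 at 77.8 ± 4.86, Zfp445 at 64.2 ± 4.78, Zfp961 at 61.1 ± 6.34, Zfp989 at 42.6 ± 0.683, Zfp932 at 38.7 ± 3.18, Zfp819 at 19.5 ± 0.582, Gm15446 at 15.1 ± 0.397 and Zfp708 at 3.62 ± 1.06. Among neighbours in this order, the libraries of Zfp445 and Zfp961 overlapped and the others did not. The median of the other genes named Zfp was 8.61 TPM, so 9 of the 10 lay above it. On mm10, Zfp932 (chr5:109996521-110010411, plus strand) and Gm15446 (chr5:109923400-109943936, plus strand) are neighbours. Zfp819 (chr7:43607169-43618285) and Zfp568 (chr7:29983955-30028282) are both on the plus strand of chromosome 7, and Zfp809 (chr9:22225714-22243354, plus strand) and Zfp445 (chr9:122844529-122866006, minus strand) on chromosome 9. The others are Zfp57 (chr17:37001163-37010635, plus strand), Zfp961 (chr8:71951038-71993792, plus strand, overlapping Cyp4f18 on the other strand), Zfp989 (chr4:146971976-146990755, plus strand) and Zfp708 (chr13:67069399-67097976, minus strand). The genes differ in how safely reads can be assigned to them. Of the 50-base words in the exons of Zfp708, 94.9% also occur in other genes, almost all in the overlapping Gm28557, and for Zfp989 the share was 67.9%, led by Zfp987. Zfp932 and Gm15446, paralogues that lie 52585 bp apart, share 1159 such words, and 37% and 32.7% of their words occur elsewhere. Values of these 4 genes are therefore uncertain, while the other 6 shared at most 2.83%.

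**Figure D1:**
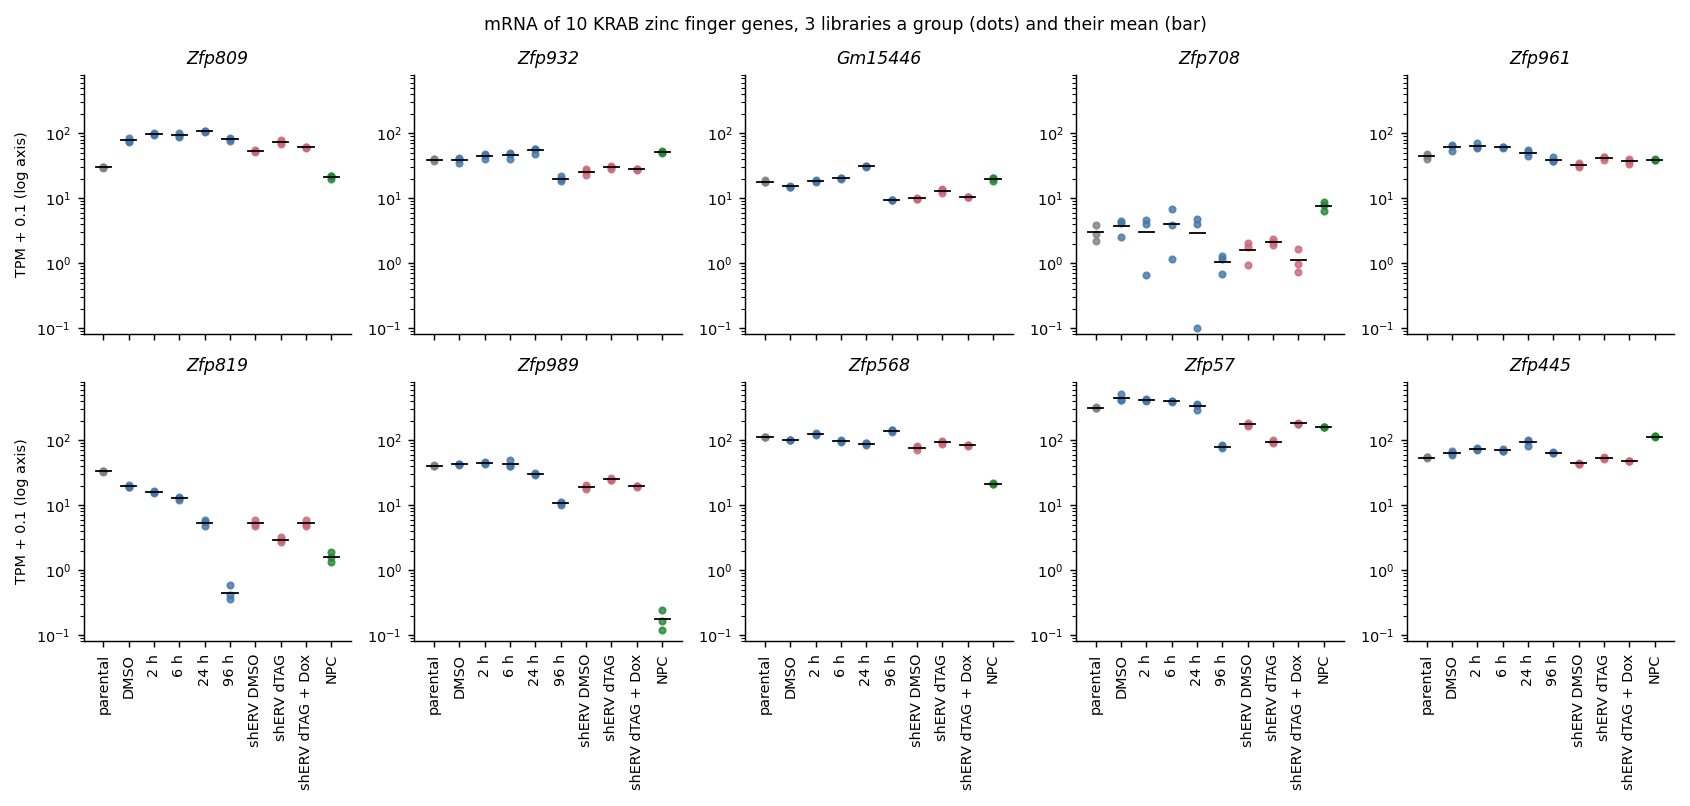
mRNA of the 10 genes in all 10 RNA-seq groups, in TPM plus 0.1 on a log axis, with a dot for each library and a bar at the mean of 3. Zfp57 is the highest gene in DMSO, at 413 to 508 TPM, Zfp819 falls from 19.5 to 0.353 TPM by 96 h, and Zfp989 is near 0 in NPCs.

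Depth, cell type and the targeted gene were checked first. The total behind the FPKM values ran from 6481488 to 24262212 reads, and the relative depth of the RNA-seq libraries from 0.341 (24 h, replicate 1) to 1.64 of their median. The degradation acts on the TRIM28 protein, so its RNA does not test the labels: Trim28 mRNA was 622 to 626 TPM in DMSO, 365 to 382 at 24 h and 186 to 204 at 96 h. All 6 ESC markers were above 1 TPM in each stem cell group, but their summed level was 3790 to 4152 TPM in DMSO, 2504 to 2882 at 24 h and 327 to 377 at 96 h. Summed fibroblast markers, chosen for feeder cells, were 18.9 to 19.9 TPM in DMSO, 24.5 to 26.9 at 24 h and 263 to 286 at 96 h (Lum, one of the 6, was at 0 in DMSO). They were 97.5 to 100 TPM in the parental line and 95.8 to 117 in the hairpin line. In NPCs all 5 neural markers were above 1 TPM, and of the 6 ESC markers Pou5f1, Zfp42 and Utf1 were at 0. The 6 still summed to 413 to 431 TPM there, with 1 of them above 1 TPM. Against the tagged line in DMSO, 1 of the 6 was called higher and 5 lower. In bulk RNA, fewer cells of a type and less RNA per cell cannot be told apart, and the part of these markers in the results below was not tested. Which cells expressed the fibroblast markers at 96 h was not tested either. The labels do not say whether replicates came from separate cultures, so p-values measure the spread between these libraries.

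Nascent RNA asks which genes change transcription first. At 2 h Zfp568 and Zfp819 rose, and these were the only 2 of the 8 genes tested that passed the threshold (limma on log2(FPKM + 0.5), Benjamini-Hochberg adjusted p below 0.05), beside 1.58% of all genes tested that rose and 1.97% that fell. Zfp568, whose protein represses the placental promoter of Igf2, had 4.12, 3.71 and 3.51 FPKM in DMSO and 5.61, 5.90 and 5.02 at 2 h. Its groups did not overlap, and the log2 change was 0.49 ± 0.0872 (SE; limma adjusted p = 0.0215). Zfp819, whose protein is known to repress retroviral elements in pluripotent cells, had 1.78, 1.73 and 1.55 FPKM in DMSO and 2.30, 2.16 and 2.18 at 2 h. Its libraries were also apart, by 0.31 ± 0.0707 on the log2 scale (limma adjusted p = 0.0464). Zfp57 stood apart in the same way, with 7.48, 6.17 and 6.28 FPKM in DMSO and 8.82, 9.90 and 9.11 at 2 h, but did not pass (log2 change 0.46, limma adjusted p = 0.0633). At 6 h Zfp961 (log2 change 0.27 ± 0.0695, limma adjusted p = 0.0414) and Zfp819 (0.28 ± 0.0707, limma adjusted p = 0.0397) were called higher, beside 7.82% of all genes called higher and 1.27% called lower. The early calls were fragile: leaving out any one of the 6 libraries compared left 0 or 1 of them at 2 h and at 6 h. With every library centred on its median gene neither passed at 6 h. A count model on reads recovered from the FPKM values (voom) called none of the 10 at 6 h (14.9% of all its genes called) and called Zfp961, Zfp819, Zfp568 and Zfp57 higher at 2 h (13.4%).

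By 24 h of dTAG-13 the nascent RNA of the imprint regulator Zfp57 and of Zfp819 had fallen while that of 5 other genes had risen, beside 5.59% of all genes called lower and 32.3% called higher. Zfp57 had 3.14, 3.53 and 3.89 FPKM at 24 h, all below its lowest DMSO library. The log2 change was -0.83 ± 0.116 (limma adjusted p = 0.000524). Zfp819 had 1.16, 1.14 and 1.28 FPKM, also under all DMSO libraries, with a log2 change of -0.37 ± 0.0707 (limma adjusted p = 0.00282). Zfp809, which recognises the proline tRNA primer binding site of murine leukaemia viruses, had 2.49, 2.4 and 2.71 FPKM in DMSO and 3.84, 4.17 and 4.5 at 24 h. It was higher in every library, with a log2 change of 0.62 ± 0.0919 (limma adjusted p = 0.000688). The other genes that rose were Zfp961 (log2 change 0.52), Gm15446 (0.47), Zfp568 (0.40) and Zfp445 (0.30). Zfp932 was higher in every 24 h library, at 0.543 to 0.666 FPKM against 0.316 to 0.497, but did not pass (limma adjusted p = 0.0591). The calls of these rises depended on scaling, because centring removed a shift of 0.24 log2 from this comparison. After centring, and by voom (40.6% of all its genes called), Zfp809 and Zfp961 were still called higher and Zfp57 and Zfp819 lower. The calls for Gm15446, Zfp568 and Zfp445 were lost. Of all 13357 genes tested, 1858 were higher and 2249 lower after centring. The 2 genes under the filter were low throughout. Zfp708 had 0.304 to 0.364 FPKM in DMSO and 0.443 to 0.559 at 24 h, and Zfp989 rested on 6 to 21 reads a library.

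**Figure D2:**
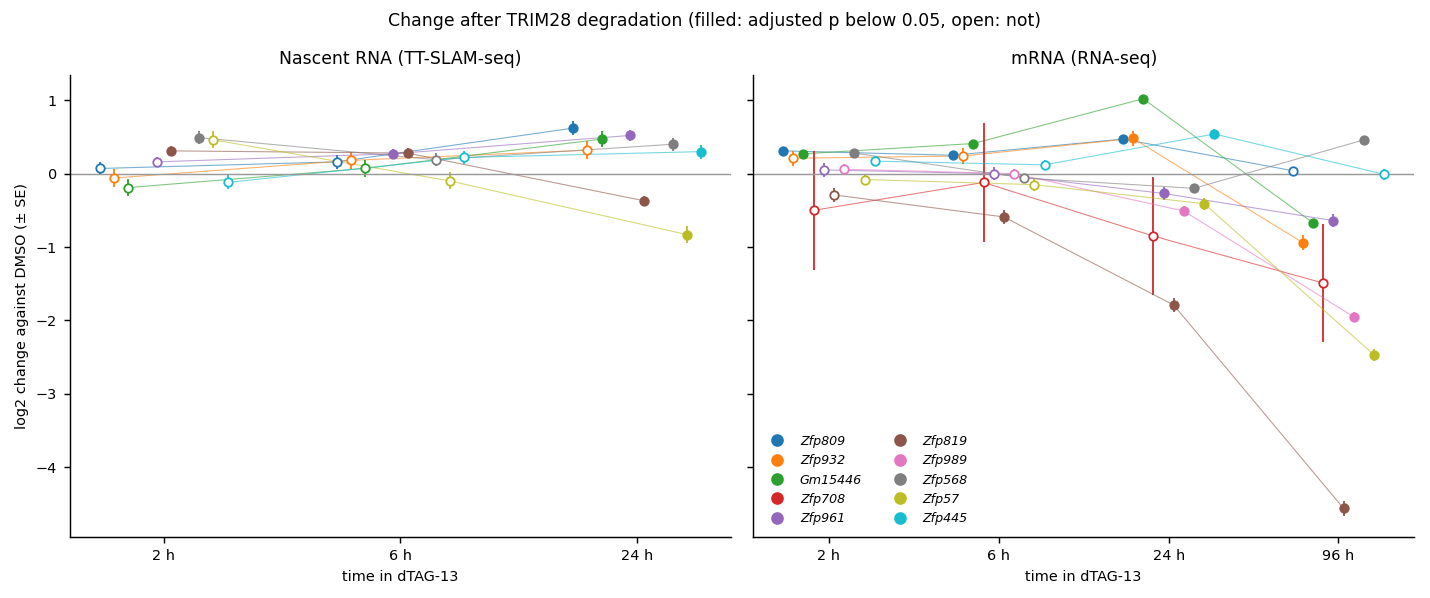
log2 change against DMSO (± SE) of nascent RNA at 2, 6 and 24 h (left) and of mRNA at 2, 6, 24 and 96 h (right), with filled circles for adjusted p below 0.05. Zfp819 and Zfp57 go down to -4.56 and -2.47 in mRNA at 96 h, whereas Gm15446 goes up to 1.02 at 24 h and down to -0.67 at 96 h.

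In mRNA the early changes were small. At 2 h 3 genes rose and none fell (8.25% and 7.02% of all genes), and at 6 h 2 rose and 1 fell (18.4% and 15.5%). Gm15446 had 14.9, 14.8 and 15.5 TPM in DMSO, 19.2, 18.2 and 17.5 at 2 h and 20.7, 19.8 and 20.2 at 6 h, and no treated library reached down to the DMSO range. Its log2 changes on log2(TPM + 0.5) were 0.27 ± 0.0436 and 0.41 ± 0.0436 (limma adjusted p = 0.00104 and 2.18e-05). Zfp809 rose by a log2 change of 0.31 at 2 h and 0.25 at 6 h, and Zfp568 by 0.28 at 2 h only. Zfp819 was the one that fell at 6 h, from 19.2, 19.1 and 20.1 TPM to 12.1, 12.9 and 13.3, a log2 change of -0.59 ± 0.0965 (limma adjusted p = 0.000519). Its mRNA was thus lower at a time when its nascent RNA was called higher, a call that centring removed.

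After 24 h of dTAG-13 the mRNA of the 10 genes had split: 4 rose, 5 fell and 1 did not pass, beside 42.9% of all genes higher and 25.0% lower, with a median log2 change of -0.24 over the 10 and 0.13 over all genes. Gm15446 rose the most, to 31.5, 31.2 and 30.6 TPM. Its mean was 2.06 times that in DMSO, where no library was above 15.5 TPM (log2 change 1.02 ± 0.0436, limma adjusted p = 2.81e-10). Its neighbour Zfp932, which like Gm15446 binds ERVK elements, went from 41.1, 35.1 and 39.9 TPM to 47.6, 57.2 and 57.6. The groups did not overlap and the log2 change was 0.48 ± 0.103 (limma adjusted p = 0.000913), a call that was lost when libraries were centred on their median. Zfp809 went from 74.3, 75.6 and 83.3 TPM to 109, 110 and 105 (log2 change 0.47 ± 0.0555, limma adjusted p = 3.71e-06). Zfp445, the second imprint regulator, went from 64.1, 59.5 and 69.0 TPM to 81.6, 102 and 98.5 (log2 change 0.54 ± 0.071, limma adjusted p = 1.10e-05). Both were above DMSO in all 3 libraries.

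Zfp819 fell furthest at 24 h, to 4.62, 5.83 and 5.45 TPM against 19.1 or more in every DMSO library (log2 change -1.79 ± 0.0965, limma adjusted p = 1.98e-09). Zfp989 fell from 41.8 to 43.1 TPM in DMSO to 28.6, 30.8 and 30.2 (log2 change -0.51 ± 0.0678, limma adjusted p = 1.37e-05). Zfp57 fell from 413, 410 and 508 TPM to 295, 357 and 349, with no overlap (log2 change -0.41 ± 0.0814, limma adjusted p = 0.000483). Zfp961 and Zfp568 were called lower by smaller amounts, with log2 changes of -0.27 and -0.20, although the nascent RNA of both was called higher at this time, after centring as well for Zfp961 only. The Zfp961 libraries overlapped, and without DMSO replicate 2 or 3, or without 24 h replicate 1, its call was lost. Zfp708 was listed at 0, 3.86 and 4.62 TPM at 24 h against 2.4 to 4.34 in DMSO, and the 0 was in the shallowest library. Centring removed 0.29 log2 at 24 h and left 3 genes higher and 5 lower, beside 4643 higher and 7900 lower of all 17922 genes tested.

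At 96 h most of the genes were below DMSO: 6 fell, 1 rose and 3 did not pass, beside 37.4% of all genes lower and 42.9% higher, with a median log2 change of -0.81 over the 10 and 0.05 over all genes. Zfp819 was nearly gone, at 0.486, 0.310 and 0.262 TPM (log2 change -4.56 ± 0.0965, limma adjusted p = 1.68e-14). Zfp57 was at 74.9, 83.0 and 80.2 TPM, so that its DMSO mean was 5.59 times higher (log2 change -2.47 ± 0.0814, limma adjusted p = 1.31e-12). Zfp989 was at 10.1, 10.7 and 11.2 TPM (log2 change -1.95 ± 0.0678, limma adjusted p = 2.33e-12). In all 3 genes the 96 h libraries lay far below both the DMSO and the 24 h libraries. The summed ESC markers were lower and the fibroblast markers higher at 96 h, as given above, with all 6 and all 5 tested members called. Zfp568 was the exception among the 10, at 141, 142 and 134 TPM against 102, 101 and 99.3 in DMSO, and above all Zfp57 libraries at this time (log2 change 0.46 ± 0.0411, limma adjusted p = 9.69e-08).

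The genes that had risen by 24 h did not stay up. Against 24 h, the 96 h libraries were lower for 8 genes and higher for 1 (42.0% and 37.4% of all genes), with a median log2 change of -1.03 over the 10 and -0.07 over all genes. Gm15446 dropped to 9.26, 9.18 and 9.35 TPM, under its DMSO level, and its log2 change from 24 h was -1.69 ± 0.0436 (limma adjusted p = 1.77e-13). Zfp932 dropped to 18.1, 22.1 and 19.6 TPM, likewise under DMSO (log2 change from 24 h -1.42 ± 0.103, limma adjusted p = 1.06e-08). Zfp809 and Zfp445 overlapped with DMSO again at 76.2 to 83.4 and 62.6 to 65.1 TPM, with log2 changes against DMSO of 0.04 and -0.01 that did not pass. These 2 values depended on scaling, since centring removed 0.28 log2 and then both were called lower, at -0.23 and -0.28. Zfp708, at 0.585 to 1.20 TPM, did not pass in either comparison, except against 24 h without the shallow 24 h replicate 1 (log2 change -1.72). The comparisons with DMSO share the same 3 DMSO libraries. Of 378 other genes named Zfp that were tested, 206 were also lower and 94 higher at 96 h than at 24 h, with a median log2 change of -0.27, and against DMSO 164 were lower and 147 higher, with a median of -0.01.

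The chromatin of the genes was read from the peaks that the authors called in each library, as the percent of the gene body under peaks. H3K9me3 peaks lay over 7 of the 10 genes in all 3 DMSO libraries, beside 13.3% of all genes and 158 of 411 other genes named Zfp (38.4%). After 24 h of dTAG-13 the covered percent was lower in every library for 6 genes and higher for none, beside 30.8% and 0.127% of all genes with a peak. Of the 411 other genes named Zfp, 147 were lower in every dTAG-13 library and 0 higher. Gm15446 had 52.1%, 79.0% and 75.8% of its body under H3K9me3 in DMSO and 0%, 4.66% and 1.58% with dTAG-13. Zfp932 had 29.7%, 73.1% and 65.0% in DMSO and 0% in all 3 dTAG-13 libraries. For Zfp445 the DMSO values were 33.6%, 39.4% and 31.0% and the dTAG-13 values 0%, 0.466% and 0%. In these 3 genes the mark covered a large part of the body in DMSO and was almost absent afterwards. Zfp989 went from 13.1%, 51.4% and 44.1% to 0%, 4.28% and 6.29%. Zfp961 (mean 9.65% in DMSO) and Zfp809 (2.68%) had smaller stretches and no peak in any dTAG-13 library. For each of the 6 genes the two-sided exact permutation test gave p = 0.1, the smallest that 3 against 3 libraries allow. Zfp708 had 1.03% to 5.19% in DMSO and overlapped, Zfp568 had at most 0.636%, and Zfp57 and Zfp819 had no H3K9me3 peak in any of the 6 libraries.

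The number of peaks differed between libraries, since dTAG-13 replicate 1 had 11474 H3K9me3 peaks over 5.32 Mb, against 48.9 and 72.1 Mb in the other dTAG-13 libraries and 70.6 to 107 Mb in DMSO. Leaving out each library in turn, that one included, kept the count at 6 or 7 genes. With the 10000 peaks of highest fold in each library, or a -log10 q of at least 5, the count was 3.

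**Figure D3:**
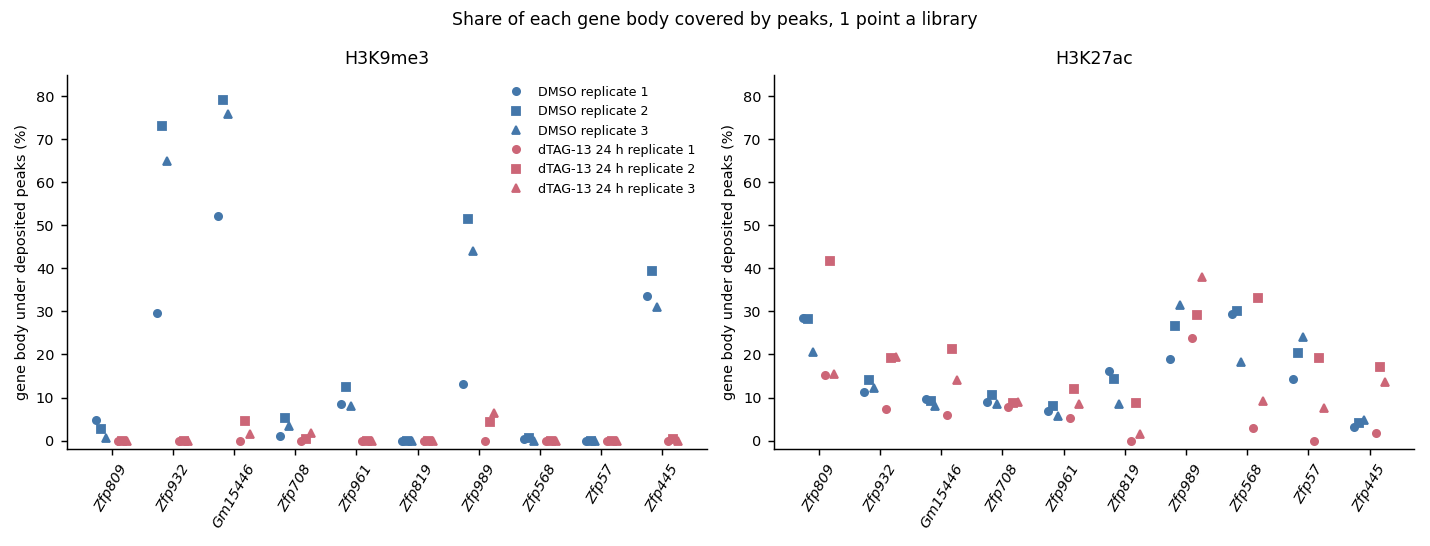
Percent of each gene body under H3K9me3 (left) and H3K27ac (right) peaks, with 1 point a library. H3K9me3 covers 52.1% to 79.0% of Gm15446 in DMSO and at most 4.66% after dTAG-13, and H3K27ac values of the groups overlap for all 10 genes.

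**Figure D4:**
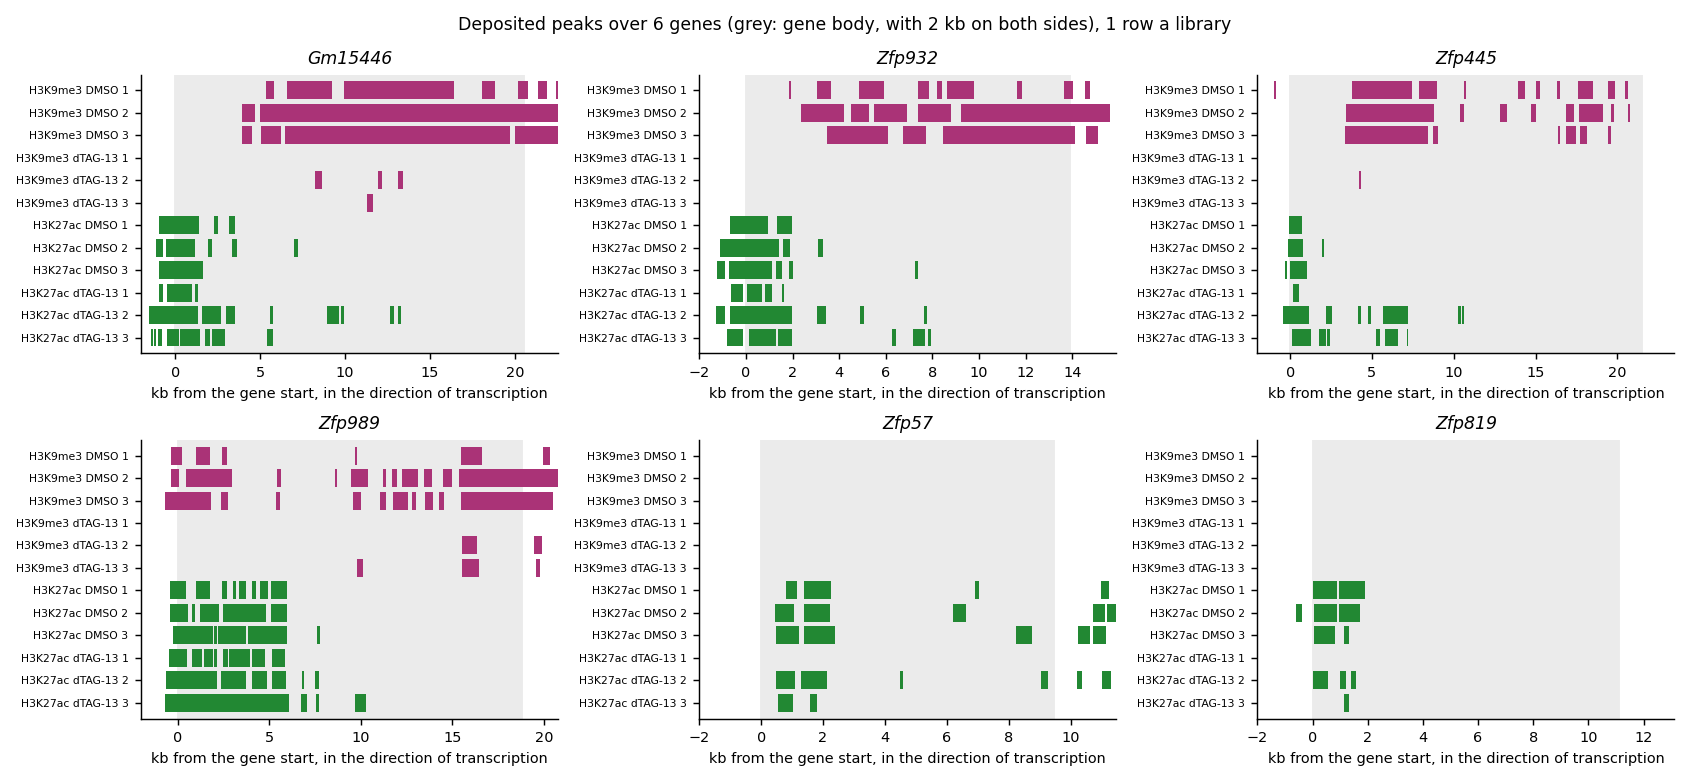
Peaks over 6 genes, drawn from the gene start in the direction of transcription, with a line for each library. H3K9me3 lies in the bodies of Gm15446, Zfp932, Zfp445 and Zfp989 in DMSO only or nearly so, and Zfp57 and Zfp819 have H3K27ac near the start and no H3K9me3.

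H3K27ac, a mark of active promoters and enhancers, was present over all 10 genes in every DMSO library, beside 28.9% of all genes. Of the 411 other genes named Zfp, 339 (82.5%) also had a peak in all 3 DMSO libraries. No gene was lower in every dTAG-13 library (15.5% of genes with a peak) and none was higher (0.369%). The dTAG-13 libraries disagreed among themselves, with 30259, 117348 and 45662 peaks. Zfp819 had 16.2%, 14.3% and 8.5% of its body covered in DMSO and 0%, 8.66% and 1.59% with dTAG-13, which overlapped only through dTAG-13 replicate 2. Zfp57 had 14.4%, 20.3% and 24.1% against 0%, 19.1% and 7.58%, again overlapping through that library. Without dTAG-13 replicate 2, these 2 genes, Zfp809 and Zfp568 were lower in every library, a count of 4. The dTAG-13 libraries left had peaks over 14.3 and 22.9 Mb, against 50 to 63.2 Mb in DMSO. Zfp445 had 3.25%, 4.13% and 4.67% in DMSO and 1.81%, 17.2% and 13.5% with dTAG-13. Without dTAG-13 replicate 1, it was higher in every library together with Zfp932, Gm15446 and Zfp961, also a count of 4. Leaving out DMSO replicate 1 or DMSO replicate 3 gave 1 lower gene. Shares over all genes were not counted with a library left out, so these counts do not set the genes apart.

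RNAPII and MED23 at the start sites went up over Gm15446 and Zfp989 and down or away over most of the others. Within 1 kb of the gene start, RNAPII over Gm15446 had fold enrichments of 4.10 and 4.22 in DMSO and 24.7 and 21.6 with dTAG-13. No other of the 10 genes gained as much. Zfp989 had no RNAPII peak in DMSO and peaks of 2.87 and 3.4 with dTAG-13, and its MED23 was 2.27 and 1.89 and then 3.53 and 5.4, while its mRNA was lower at this time. Over Zfp809 RNAPII was at 18.1 and 18.8 in DMSO and 5.74 and 7.46 with dTAG-13, and over Zfp568 at 10.5 in both DMSO libraries and 5.16 and 4.47 afterwards. The mRNA of Zfp809 was higher at this time, so the peak height and the RNA went different ways in these libraries. The RNAPII peaks of Zfp819 (5.80 and 6.28) and of Zfp961 (4.69 and 4.44) were absent from both dTAG-13 libraries, as were their MED23 peaks. At the Zfp57 promoter printed above, RNAPII of 3.61 and 3.89 and MED23 of 9.29 and 8.27 in DMSO gave way to no peak in either dTAG-13 library. MED23 over Gm15446 was 11.4 and 10.2 in DMSO and 13.3 and 16.0 with dTAG-13, whereas over Zfp568 it was 13.6 and 14.9 and then 4.22 and 4.59. In all, MED23 peaks were found at the starts of 9 of the 10 genes in each DMSO library and of 5 and 6 with dTAG-13, beside 32.9% of all 54446 genes in each DMSO library and 10.3% and 9.30% with dTAG-13. Of genes with MED23 in both DMSO libraries, 5 and 6 of the 9 members kept a peak, beside 32.4% and 29.1% of all 17223, so peaks were lost over all genes as well. RNAPII peaks were at 7 members in each DMSO library, of which 5 kept a peak in each dTAG-13 library, beside 57.9% and 52.9% of all 10937 such genes. The dTAG-13 libraries held fewer peaks in total (7689 and 8182 for RNAPII against 19194 and 19853, and 14551 and 15335 for MED23 against 58925 and 63045). Peak heights are relative to each library's own background, and with 2 libraries a group no test was made.

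The hairpin line asks how the genes respond when ERV transcripts are lowered as TRIM28 is lost. With dTAG-13 for 24 h, 7 genes rose and 2 fell (41.2% and 12.8% of all genes), with a median log2 change of 0.31 over the 10 and 0.14 over all genes. Among the 7, the call of Zfp932 (log2 change 0.21, limma adjusted p = 0.025) was lost on centring and without DMSO replicate 3 or dTAG-13 replicate 1 or 3 (0.05 to 0.21). The 2 that fell were Zfp57 and Zfp819. Zfp57 had 168, 182 and 174 TPM in DMSO, 92.3, 91.1 and 99.1 with dTAG-13, and 175, 180 and 187 with dTAG-13 and Dox. The dTAG-13 libraries lay below all others, and those with Dox were in or above the DMSO range. The log2 changes were -0.89 ± 0.0475 for dTAG-13 against DMSO and 0.94 ± 0.0475 for Dox added to dTAG-13 (limma adjusted p = 6.55e-08 and 5.09e-08). Zfp819 had 4.68, 5.05 and 5.82 TPM in DMSO, 3.16, 2.60 and 2.80 with dTAG-13, and 5.71, 4.95 and 4.75 with Dox added, a pattern of the same shape (log2 changes -0.76 ± 0.105 and 0.75 ± 0.105, limma adjusted p = 8.65e-05 and 0.000128). The 2 comparisons share the dTAG-13 libraries. Summed ESC markers moved the same way, from 1932 to 2257 TPM in DMSO to 971 to 999 with dTAG-13 and 2180 to 2212 with Dox added, with all 6 markers called in both comparisons.

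When Dox was added to dTAG-13, 6 of the 10 genes were lower than with dTAG-13 alone and 2 were higher, beside 29.3% and 17.5% of all genes. Zfp809 had 51.1, 55.7 and 53.9 TPM in DMSO, 72.0, 68.3 and 78.1 with dTAG-13 and 61.0, 60.5 and 60.0 with Dox, so that the libraries with Dox lay between the other groups (log2 change for Dox -0.26 ± 0.0534, limma adjusted p = 0.00178). Gm15446 had 9.74 to 9.97 TPM in DMSO, 11.8 to 13.7 with dTAG-13 and 10.5 in all 3 libraries with Dox (log2 change for Dox -0.29 ± 0.0641, limma adjusted p = 0.00275). Zfp989, Zfp568 and Zfp445 were called lower with Dox, by log2 changes of -0.35, -0.16 and -0.15. The Zfp568 call was lost without dTAG-13 replicate 1 or 3 or any 1 of the 3 libraries with Dox (-0.16 to -0.13), and the Zfp445 call was lost on centring and without dTAG-13 replicate 1 (-0.13 to -0.08). Zfp708, at 1.82 to 2.25 TPM with dTAG-13 and 0.639 to 1.57 with Dox, was called lower, with a log2 change of -0.77 (limma adjusted p = 0.0216), a call lost on centring and without dTAG-13 replicate 2 or Dox replicate 1 or 2 (-0.77 to -0.58). Zfp932 and Zfp961 did not pass, at -0.09 and -0.16. Centring the libraries removed 0.16 log2 from the comparison with DMSO. It left 6 genes higher and 2 lower with dTAG-13, and 2 higher and 4 lower with Dox. Of all 16166 genes tested, 4189 were then higher and 4789 lower with dTAG-13, and 4570 higher and 4123 lower with Dox.

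The response to dTAG-13 at 24 h differed between the lines for 7 of the 10 genes by an interaction test over 12 libraries, beside 51.4% of all genes. Zfp989 fell in the tagged line (log2 change -0.51) and rose in the hairpin line (0.38), a difference of 0.89 ± 0.0778 (limma adjusted p = 3.63e-06). Zfp961 (-0.27 and 0.34) and Zfp568 (-0.20 and 0.28) also went in opposite directions, with differences of 0.62 and 0.48. Zfp819 fell in both lines but less in the hairpin line (difference 1.03 ± 0.142, limma adjusted p = 8.84e-05), and Gm15446 rose in both but less there (difference -0.64 ± 0.0827, limma adjusted p = 5.46e-05). Zfp57 fell more in the hairpin line, by a difference of -0.48 ± 0.122 (limma adjusted p = 0.00577), and Zfp445 rose less there (difference -0.27, limma adjusted p = 0.0481). The hairpins, the RNA fraction, the library kit and possibly the feeder cells differed between the lines and cannot be told apart.

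**Figure D5:**
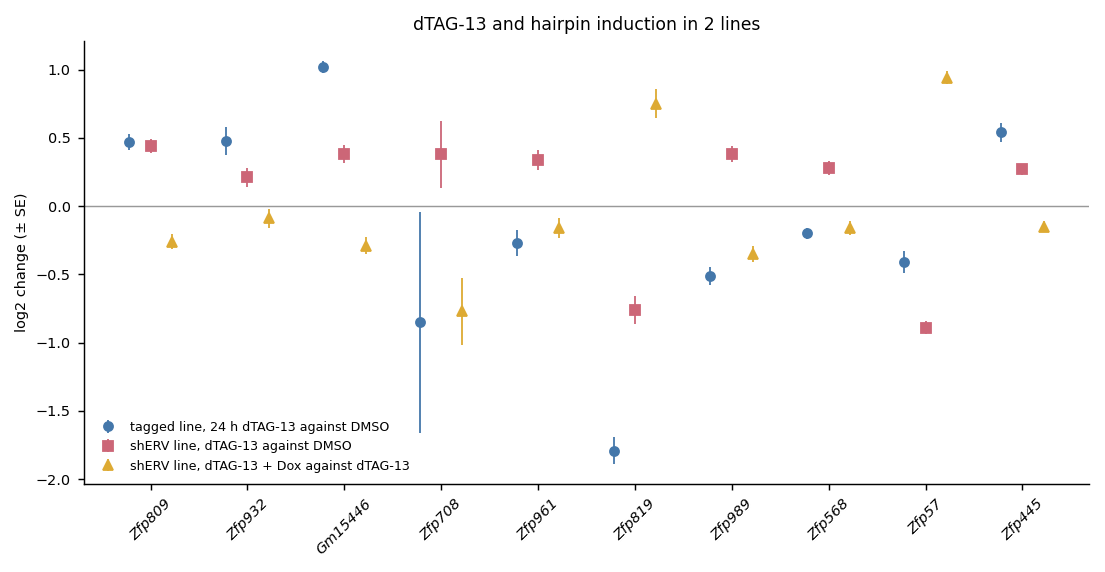
log2 change (± SE) of each gene for dTAG-13 against DMSO at 24 h in the tagged line (circles) and in the hairpin (shERV) line (squares), and for dTAG-13 with Dox against dTAG-13 in the hairpin line (triangles). Zfp57 and Zfp819 are at -0.89 and -0.76 with dTAG-13 and at 0.94 and 0.75 when Dox is added, and the other 8 genes are above 0 with dTAG-13 in this line.

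The undegraded tagged line already differed from its parent. Against the tagged line in DMSO, 3 of the genes were higher and 4 lower in parental cells (25.0% and 41.0% of all genes). Zfp809 had 29.9, 29.1 and 30.6 TPM in parental cells and 74.3 or more in every tagged library, a log2 change of -1.36 ± 0.0548 (limma adjusted p = 4.88e-08). No other of the 10 differed by as much. Zfp819 was higher in parental cells, at 32.3, 33.7 and 33.4 TPM (log2 change 0.75 ± 0.0914, limma adjusted p = 7.04e-05), and Zfp57 was lower, at 323, 316 and 315 (log2 change -0.47 ± 0.0706, limma adjusted p = 0.000276). Centring removed a shift of -0.19 log2, after which Zfp445 was no longer called and Zfp932 was called higher (0.22). Trim28 mRNA was 1387 to 1418 TPM in parental cells. The parental cells were grown on feeder fibroblasts, which may have been removed before RNA-seq, and tag, clone and any feeders cannot be told apart.

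In NPCs all 10 genes differed from the tagged stem cells, 4 higher and 6 lower, beside 49.5% and 39.5% of all genes. The labels do not say whether the NPC line carries the TRIM28 tag, so cell type and line cannot be told apart here. Zfp989 was at 0.143, 0.0205 and 0.0663 TPM, against 41.8 or more in the tagged stem cells in DMSO. Zfp819 was at 1.50, 1.79 and 1.22 TPM (log2 change -3.33 ± 0.0914, limma adjusted p = 3.62e-10). Zfp568 was at 21.6, 21.2 and 20.8 TPM (log2 change -2.23) and Zfp809 at 21.5, 22 and 19.6 (log2 change -1.86), each with no overlap. For Zfp809 the untagged parental stem cells, at 29.1 to 30.6 TPM, lay much nearer to the NPCs than the tagged line did. Zfp57 was still at 158, 160 and 162 TPM, with a log2 change of -1.46 ± 0.0706 (limma adjusted p = 2.17e-08). Zfp445, by contrast, was higher in NPCs at 112, 114 and 114 TPM (log2 change 0.82 ± 0.0473, limma adjusted p = 8.83e-08), so the 2 imprint regulators went in opposite directions. Zfp708 was at 7.86, 6.29 and 8.63 TPM, its highest group (log2 change 1.0 ± 0.232, limma adjusted p = 0.00245). Zfp932 and Gm15446 were higher by log2 changes of 0.41 and 0.36, which were 0.01 and -0.03 once a shift of 0.40 between the groups was removed.

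Genes that published work ties to particular members were read beside them. Igf2, the target of Zfp568, had 122, 126 and 125 TPM in DMSO, 185, 158 and 168 at 24 h and 955, 962 and 854 at 96 h, with no overlap at either time (log2 changes 0.45 ± 0.0724 and 2.88 ± 0.0724, limma adjusted p = 7.78e-05 and 7.91e-14). In parental cells it was 1.95 to 2.16 TPM. Cyp2b23, which lies next to a retroviral element bound by Zfp809, had 2.51, 2.76 and 2.58 TPM in DMSO and 30.5, 36.9 and 36.7 at 24 h (log2 change 3.49 ± 0.108, limma adjusted p = 1.59e-11). In the hairpin line it went from 0.414 to 0.955 TPM in DMSO to 16.7 to 18.6 with dTAG-13 and back to 0.730 to 0.943 with Dox, so only the dTAG-13 libraries were high. Bglap3, tied to Zfp932 and Gm15446, had 3.18, 3.35 and 4.07 TPM in DMSO, 21.7, 24.8 and 24.2 at 24 h and 2.06, 1.76 and 1.89 at 96 h (log2 changes 2.58 ± 0.105 and -0.74 ± 0.105, limma adjusted p = 2.00e-10 and 1.37e-05). It thus rose and then went below DMSO, and H3K9me3 covered 56.1% of its body in DMSO and 0% with dTAG-13.

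Among imprinted genes, the domain of Zfp57 and Zfp445, 17 of 31 tested were higher (54.8%) and 9 lower (29%) at 24 h, beside 42.9% and 25.0% of all genes, with a median log2 change of 0.34 against 0.13 over all genes, and 23 were higher (74.2%) and 8 lower (25.8%) at 96 h, beside 42.9% and 37.4%. Mest, whose promoter is printed above, had 0.307, 0.534 and 0.484 TPM in DMSO, 7.36, 5.01 and 5.55 at 24 h and 59.3, 62.5 and 67.0 at 96 h (log2 changes 2.77 ± 0.13 and 6.08 ± 0.13, limma adjusted p = 5.66e-10 and 1.77e-14). In the hairpin line Mest was at 17.5 to 19 TPM with dTAG-13 and at 0.524 to 0.613 with Dox added, just above its DMSO level of 0.433 to 0.523. Parental cells had 63.1 to 65.4 TPM, far above the DMSO libraries of both the tagged and the hairpin line. Snrpn went the other way, from 218, 209 and 204 TPM to 98.7, 92.2 and 97.4 at 24 h (log2 change -1.13 ± 0.0396, limma adjusted p = 5.65e-11). RNAPII at its printed promoter was 12.3 and 12.7 in DMSO and absent with dTAG-13. H19 had 6.85, 8.05 and 6.99 TPM in DMSO and 33.6, 29.1 and 33.5 at 24 h (log2 change 2.06 ± 0.107, limma adjusted p = 1.43e-09), and Peg3 rose by a log2 change of 0.67 ± 0.0469 (limma adjusted p = 2.31e-08).

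Of 12 genes that encode partners of TRIM28 and enzymes of its pathway, 3 were higher and 5 lower in mRNA at 24 h (25% and 41.7%, beside 42.9% and 25.0% of all genes), and Smarcad1, a chromatin remodeller, fell the most (log2 change -1.0, limma adjusted p = 4.50e-10), followed by Hdac1 of the NuRD complex (-0.51) and Cbx1, an HP1 protein (-0.45). At 96 h 2 were higher and 10 lower (16.7% and 83.3%, beside 42.9% and 37.4%), led by Chd3 of NuRD (1.78), Cbx1 (-1.60) and Uhrf1, which guides DNA methylation to replicated DNA (-1.02). In nascent RNA at 24 h, 1 of 11 was higher (Atf7ip, the partner of SETDB1, 0.47) and 1 lower (Smarcad1, -0.37), beside 32.3% and 5.59% of all genes.

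The genes whose mRNA profiles over the 15 libraries of the time course were most like the members that fell furthest were, for Zfp819, Accsl, Vwa3b and Sall1 (Pearson r = 0.997, 0.997 and 0.996) and, for Zfp57, Ltbp4, Mcf2 and Gm16211 (r = 0.996 each), out of 17922 genes. These values describe libraries that share treatments and time, and no test was made. The genes also differed in position: Zfp568 had 14 other Zfp genes within 250 kb, Zfp708 had 7, and Zfp57 had none.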

How the data were processed

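The members and gene lists were chosen with earlier results of these data known. Per the labels and the study's methods, the authors aligned 30 RNA-seq libraries to mm10 with STAR 2.7.5a after trimming with cutadapt 2.4, and deposited StringTie 2.0.6 gene tables whose TPM values and read coverage were used here (coverage for relative depth only). For 12 TT-SLAM-seq libraries the authors deposited FPKM values of reads with T-to-C conversions. These are whole reads per kilobase of gene span, since 98.3% to 99.4% of the values of up to 20 reads came out within 0.1 of a whole number. For 20 ChIP-seq libraries the authors aligned reads to mm10 and spike-in dm6 with BWA and deposited MACS2 peaks per library, with fold enrichment and -log10 q as columns. These heights were not scaled to the spike-in.

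Here log2(value + 0.5) was fitted with limma 3.58.1 in R 4.3.3 (trended empirical Bayes), within each experiment, for genes of at least 1 TPM or 0.5 FPKM in 3 libraries, and p-values were adjusted by Benjamini-Hochberg over all genes tested, with a threshold of 0.05. A fold change on this scale understates the change of low genes. The time course fit held 15 libraries, the hairpin line 9, the parental and NPC comparison 9 and the interaction 12. Steps were tested on simulated data. Peaks were intersected with gene bodies (overlap of at least 1 bp) and groups of 3 compared by two-sided exact permutation tests. Named genes were the 10 members, Trim28, published targets, and from the pathway (12 genes) and imprinted (34 genes) lists those past 2-fold or among the 3 largest changes. Genes whose symbol starts with Zfp stood for other zinc finger genes. Alternatives were other added values, filters, centring, a replicate block, peak limits and leaving out each library, and, added after seeing the data, voom on recovered reads (at least 10 in 3 libraries). No per-sample column was left unused (0). Figures were drawn with matplotlib 3.10.9 in Python 3.11.15.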

Additional observations from a re-analysis of the deposited data

Results flagged for a closer look

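Between the hairpin line and the tagged line, the effect of dTAG-13 at 24 h differed for 7 of the 10 genes, beside 51.4% of all genes. The test was the interaction (limma on log2(TPM + 0.5), Benjamini-Hochberg adjusted p below 0.05). The differences, hairpin line minus tagged line, were higher for Zfp819 (1.03), Zfp989 (0.89), Zfp961 (0.62) and Zfp568 (0.48), and lower for Gm15446 (-0.64), Zfp57 (-0.48) and Zfp445 (-0.27). For Zfp989, Zfp961 and Zfp568 the 3 libraries of dTAG-13 were above DMSO in the hairpin line while the change in the tagged line was negative. Zfp819 started from a lower level in the hairpin line, at 4.68 to 5.82 TPM in DMSO against 19.1 to 20.1 TPM in the tagged line. The difference for Zfp445 is the least firm of the 7, with an adjusted p of 0.0481 by limma, and it did not pass in 13 alternatives, where it lay between -0.29 and -0.15. Fibroblast markers summed to 95.8 to 117 TPM in the hairpin line and to 18.9 to 26.9 TPM in the tagged line at these times, and their part was not tested.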

How the results depend on the processing

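Of 1520 log2 values recomputed under the alternatives, 1423 kept their side of the threshold (25 of them, not called, with the other sign), 78 lost the call and 17 gained one. A pair changed sign when libraries were centred on their median, and no call changed direction. Zfp809 at 96 h, not called before, was then called lower (-0.23). Gm15446 in NPCs, called higher before, was no longer called (-0.03). With a 2-fold limit added, 0 members were called in nascent RNA at 2, 6 and 24 h and in both hairpin line comparisons. In mRNA the count was 0 at 2 and 6 h, 2 at 24 h, 3 at 96 h and 5 for 96 h against 24 h. It was 1 in parental cells and 6 in NPCs. Shares over all genes under this limit are not given here. Of 378 other genes named Zfp, 41 were higher and 42 lower past the limit at 96 h. For 96 h against 24 h, 23 were higher and 58 lower, and in NPCs 133 higher and 58 lower. Nascent calls were the least stable. At 2 h (2 members) the count was 0 with a filter at a mean of 5, 1 without a filter, 4 by voom, and 0 to 1 with one library left out. At 6 h (2) it was 0 with a mean of 5, without a filter, centred or by voom, and 0 to 1 with one library left out. At 24 h (7) it was 1 with a mean of 5, and 4 centred or by voom. Centring gave 5 members in mRNA at 6 h, beside 2023 genes higher and 4710 lower of 17922. Centring also moved the share of all calls that were higher from 44.5% to 67.6% in nascent RNA at 2 h, from 86% to 68.2% at 6 h and from 85.2% to 45.2% at 24 h, and in mRNA from 54.2% to 30% at 6 h, from 63.1% to 37% at 24 h and from 53.4% to 40.9% at 96 h. The hairpin line went from 76.4% to 46.7% with dTAG-13 and from 37.4% to 52.6% with Dox, parental cells from 37.9% to 60.8% and NPCs from 55.6% to 41.4%.

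With the replicate block, 1 member was called in nascent RNA at 2 h and 0 at 6 h. Deviations of same-numbered libraries correlated weakly (r from -0.20 to 0.18). Such values cannot show whether these libraries shared a culture or batch, so pairing by number remains unknown.

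Among the 10000 peaks of highest fold, or at a -log10 q of at least 5, H3K9me3 lay over 3 members in all DMSO libraries and was lower in every dTAG-13 library for 3. H3K27ac lay over 3 members with the 10000 peaks and over 4 in the 3′ part of the body. With one library left out, 0 to 4 members were lower and 0 to 4 higher in H3K27ac. Shares over all genes were not counted for these peak settings. Apart from what the construction of an alternative shows, the cause of these shifts was not tested. Exact permutation tests of 3 against 3 libraries of peaks cannot go below p = 0.1, and RNAPII and MED23 had no test.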
